A study of Populus ussuriensis with 12 samples.

Results

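The genes described here are 9 lignin pathway genes of poplar, out of 34699 gene identifiers in an RNA-seq table of root tips. They were chosen by name and not by a rule on measured values, but with earlier results of these data known. They cover 5 enzyme steps in the middle of the route to lignin. Cinnamate 4-hydroxylase is encoded by C4H1 (Potri.013G157900) and C4H2 (Potri.019G130700), and 4-coumarate:CoA ligase by 4CL3 (Potri.001G036900) and 4CL5 (Potri.003G188500). The shikimate hydroxycinnamoyl transferase is encoded by HCT1 (Potri.003G183900) and HCT6 (Potri.001G042900), and the coumaroyl shikimate hydroxylase by C3H3 (Potri.006G033300). Caffeoyl shikimate esterase is encoded by CSE1 (Potri.003G059200) and CSE2 (Potri.001G175000). The table itself pairs no identifier with a name, so the names rest on the assignment of these 9 identifiers supplied with the list.

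Root tips of 0.5 cm were taken from Populus ussuriensis plants grown in vitro on half-strength MS medium. Plants 1 week old had been moved for 7 days to agar medium without PEG6000, or with 6% of it, a polymer that withdraws water from roots. Wild-type plants (WT) and plants overexpressing PuC3H35 (OE) were each sampled on both media, in 4 groups of 3 libraries. PuC3H35 is a CCCH zinc finger protein, and the C3H in its name is unrelated to the hydroxylase C3H3. In their genotype labels the 6 OE libraries each bear a different PuC3H number although the series title speaks of 1 line, and they were treated as 1 genotype. With 1 line, an effect of the transgene cannot be told apart from other traits of that line. No source used here gives the promoter of the transgene, and the level of PuC3H35 was not looked up. Whether replicates are separate plants or cultures is not stated in the labels, so the p-values cover the spread between these libraries alone, which may be technical.

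Lignin is a phenolic polymer that stiffens and waterproofs the walls of xylem vessels and fibres and, in roots, the Casparian strip of the endodermis. Its monolignols are made from phenylalanine. C4H, a membrane-bound cytochrome P450, turns cinnamate into coumarate, and 4CL joins coumarate to coenzyme A. HCT then moves the coumaroyl group to shikimate, C3H (another cytochrome P450) adds the hydroxyl group that commits the route to G and S lignin, and CSE releases caffeate from caffeoyl shikimate. The products of C4H and 4CL also feed flavonoids, whereas HCT, C3H and CSE lie past that branch. In differentiating xylem of Populus trichocarpa, C4H1, C4H2 and C3H3 are known to form membrane complexes.

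The values are FPKM, reads scaled to gene length and library depth, so levels of different genes can be set side by side. Whole reads were recovered from the steps between values, and the implied depth was 27124958 to 37106342 reads per library. The 9 genes had 124 reads (CSE2 in a WT library without PEG) to 20692 reads (C4H1 in a WT PEG library) in a single library. FPKM sums were 661656 to 665551 in the 3 OE PEG libraries and 610202 to 623973 in the other 9. Across all tested genes, Spearman's rho between recovered length and log2 fold change was -0.34 for PEG in OE and 0.04 for PEG in WT. It was -0.31 for OE against WT under PEG, -0.31 for the interaction and -0.01 for OE against WT without PEG. Root tips are bulk tissue, so fewer cells of a type and less RNA per cell cannot be told apart. The root tip label was not checked against marker genes, since no annotation was used here.

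In WT root tips without PEG the 9 genes spanned a wide range of abundance. C4H1 was highest at 214.5 ± 1.14 FPKM (SD over n = 3 libraries, as for every group value), above 97.8% of tested genes. CSE1 came next at 160.1 ± 2.76, followed by 4CL3 at 110.7 ± 3.05, C3H3 at 95.4 ± 1.93 and C4H2 at 83.9 ± 1.57. The remaining 4 were lower, with HCT1 at 24.8 ± 0.912, 4CL5 at 21.1 ± 0.853, HCT6 at 13.3 ± 0.529 and CSE2 at 3.18 ± 0.512 FPKM, the last above 23.5% of tested genes. The 3 libraries of neighbouring genes in this order did not overlap in WT without PEG. Among the listed genes, each of the 4 paired steps thus had a major and a minor paralog. The major ones were C4H1, 4CL3, HCT1 and CSE1, and these stayed the higher of their pair in all 4 groups. The order changed with condition. In WT under PEG, C3H3 and 4CL3 overlapped, as did HCT6 and 4CL5, and in OE under PEG 4CL3 at 148.4 ± 6.00 FPKM stood second, above C4H2 at 120.1 ± 3.04 and CSE1 at 105.5 ± 4.999.

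**Figure D1:**
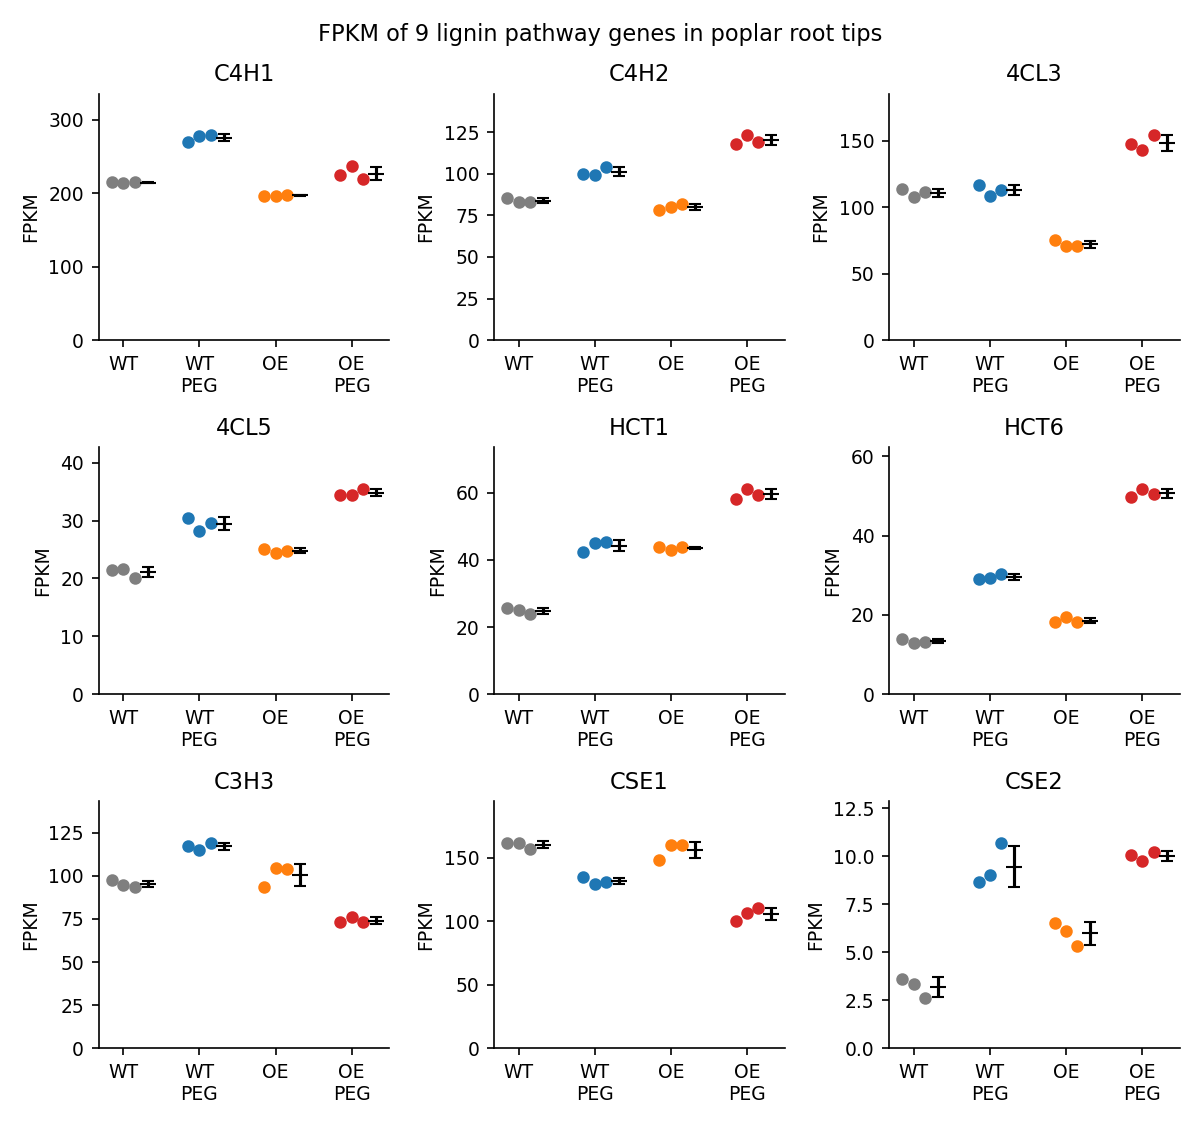
FPKM (vertical axes from 0, own scale per gene) of the 9 genes in the 4 groups; coloured points are the 3 libraries of a group, and the black bar beside them is their mean with its SD. The OE PEG group has the highest mean for 6 of the 9 genes (C4H2, 4CL3, 4CL5, HCT1, HCT6 and CSE2) and the lowest for C3H3 and CSE1; for CSE2 it overlaps WT under PEG. FPKM sums were also highest in the OE PEG libraries, and the share of all tested genes with their highest mean there was not counted.

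C4H1 read 215, 213 and 215 FPKM in WT without PEG and 269.9, 278 and 279.8 in WT with PEG. In OE it read 197, 196 and 198 without PEG and 225, 236 and 219 with PEG. The WT PEG libraries were the highest, the OE libraries without PEG the lowest, and no groups overlapped. C4H2 read 85.7, 82.9 and 83.1 FPKM in WT without PEG and 100.1, 99.04 and 104 with PEG. In OE it read 77.9, 80.1 and 81.8 without PEG and 118, 124 and 119 with PEG. The groups of C4H2 did not overlap either, but its highest group was OE under PEG, where C4H1 was below its WT PEG level. C4H1 accordingly gave 71.9% ± 0.36 of the summed C4H FPKM in WT, 73.2% ± 0.46 in WT under PEG, 71.2% ± 0.44 in OE and 65.4% ± 0.47 in OE under PEG.

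For 4CL3 the WT libraries read 113, 107 and 111 FPKM without PEG and 117, 109 and 113 with PEG. The OE libraries read 75.03, 70.5 and 70.8 without PEG and 148, 143 and 155 with PEG. The 2 WT groups overlapped, while the OE groups lay below and above both of them. For 4CL5 the WT libraries read 21.4, 21.7 and 20.1 FPKM without PEG and 30.4, 28.3 and 29.6 with PEG. The OE libraries read 25.2, 24.3 and 24.8 without PEG and 34.5, 34.4 and 35.5 with PEG. No groups of 4CL5 overlapped, and PEG added 8.37 FPKM in WT and 10.1 in OE. The share of 4CL3 in the 4CL sum was 84.0% ± 0.75 in WT, 79.3% ± 0.06 in WT under PEG, 74.4% ± 0.43 in OE and 81.0% ± 0.39 in OE under PEG.

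HCT1 stood at 25.6, 25.1 and 23.8 FPKM in WT without PEG and at 42.4, 44.97 and 45.4 with PEG. In OE it stood at 43.8, 43.1 and 43.8 without PEG and at 58.2, 61.3 and 59.4 with PEG. OE without PEG overlapped WT under PEG, and all other pairs of groups were separate. HCT6 stood at 13.9, 12.97 and 13.1 FPKM in WT without PEG and at 28.9, 29.4 and 30.4 with PEG. In OE it stood at 18.1, 19.4 and 18.3 without PEG and at 49.7, 51.9 and 50.5 with PEG. HCT6 had the widest range of the 9 genes, its highest group mean being 3.8 times its lowest. The share of HCT1 in the HCT sum was 65.1% ± 0.72 in WT, 59.9% ± 0.53 in WT under PEG, 70.1% ± 0.97 in OE and 54.1% ± 0.10 in OE under PEG.

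C3H3, the single gene listed here for its step, read 97.5, 94.9 and 93.7 FPKM in WT without PEG and 117, 115 and 119 with PEG. In OE it read 93.4, 104 and 104 without PEG and 73.04, 76.2 and 72.96 with PEG. OE library 1 without PEG lay below the 3 WT libraries without PEG, and the other 2 lay above them. PEG thus moved C3H3 up by 21.8 FPKM in WT and down by 26.5 in OE. C3H3 also had the longest recovered gene length of the 9, 3941 bp, against a median of 1825 bp over tested genes.

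CSE1 read 162, 162 and 157 FPKM in WT without PEG and 134, 129 and 131 with PEG. In OE it read 148, 159.7 and 159.6 without PEG and 100.2, 106 and 110.2 with PEG. WT and OE overlapped without PEG, and the PEG libraries of each genotype lay below all libraries without PEG. CSE2, the minor paralog, read 3.60, 3.32 and 2.61 FPKM in WT without PEG and 8.67, 8.99 and 10.7 with PEG. In OE it read 6.51, 6.12 and 5.31 without PEG and 10.03, 9.74 and 10.2 with PEG. The paralogs moved in opposite directions with PEG, and the PEG groups of CSE2 overlapped between genotypes. CSE1 still gave 98.1% ± 0.28 of the CSE sum in WT, 93.3% ± 0.76 in WT under PEG, 96.3% ± 0.49 in OE and 91.3% ± 0.37 in OE under PEG.

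Summed over the listed genes alone, the 5 steps differed in their response. Any other genes of these families were not looked up and are not in the sums or shares. C4H rose in summed FPKM by a similar ratio in both genotypes, 1.26 in WT (298.4 ± 2.21 to 376.9 ± 6.95) and 1.25 in OE (277 ± 2.70 to 347 ± 11.5). Its 2 genes differed, with ratios of 1.29 in WT and 1.15 in OE for C4H1, and 1.2 and 1.5 for C4H2. The 4CL sum was 132 ± 2.97 and 142 ± 5.07 in WT without and with PEG, a ratio of 1.08, and 96.9 ± 2.90 and 183 ± 6.54 in OE, a ratio of 1.89. The HCT sum stood at 38.2 ± 1.32 and 73.8 ± 2.25 in WT and at 62.1 ± 0.280 and 110.3 ± 2.63 in OE. HCT was the step with the largest ratio of OE to WT without PEG, 1.63, and under PEG, 1.49. The CSE sum was 163 ± 3.25 and 141 ± 2.39 in WT and 162 ± 6.03 and 115.5 ± 5.11 in OE, and was lower with PEG in both genotypes. These sums and the shares above are descriptions with no test. The step sums were not rescaled for the higher total FPKM of the OE PEG libraries. The OE ratios, and the likeness of the C4H ratios of the 2 genotypes, thus depend on scaling. With libraries rescaled to the same total, the C4H1 rise in OE was 0.09 on the log2 scale, against 0.20 without.

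**Figure D2:**
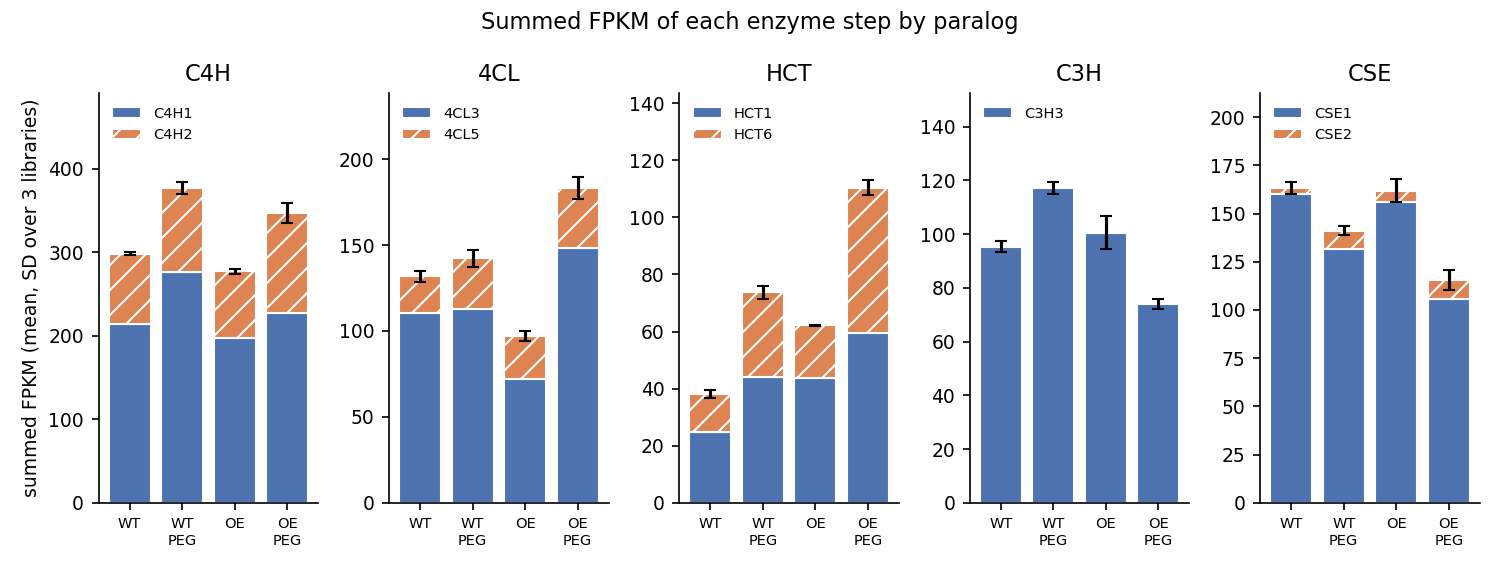
Summed FPKM (vertical axes from 0, own scale per step) of the listed genes of each enzyme step in the 4 groups, stacked by paralog (blue, the major gene; orange with hatching, the minor gene); bars are means of 3 libraries and error bars the SD of the sum. HCT and 4CL reach their highest sums in OE under PEG (110.3 and 183 FPKM), whereas C3H and CSE are lowest there (74.1 and 115.5 FPKM).

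The first comparison asked how the lignin genes of WT root tips respond to PEG. Of the 9 genes 7 were higher with PEG, namely C4H1, C4H2, 4CL5, HCT1, HCT6, C3H3 and CSE2. The largest rises were those of the minor paralogs CSE2 and HCT6, to 2.98 and 2.22 times their level without PEG. CSE1 fell to 0.822 times its level, and 4CL3 was the one gene that did not pass the test.

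On the log2(FPKM + 1) scale the changes in WT were 1.33 (SE 0.10, limma adjusted p = 2.2e-08) for CSE2 and 1.09 (SE 0.04, adjusted p = 2.1e-11) for HCT6. HCT1 changed by 0.81 (SE 0.04, limma adjusted p = 2.5e-10), and 4CL5 by 0.46 (SE 0.04, adjusted p = 2.5e-07). Smaller rises were measured for C4H1 (0.36, limma adjusted p = 1.4e-07), C3H3 (0.29, adjusted p = 2.4e-05) and C4H2 (0.27, adjusted p = 8.6e-06). The fall of CSE1 was -0.28 (SE 0.04, limma adjusted p = 2.3e-05). For 4CL3 the change was 0.03, with a 95% confidence interval from -0.06 to 0.11 (limma adjusted p = 0.58). Quantile normalization put it at 0.11 and called it (limma adjusted p = 0.03), and gave CSE1 as -0.17. The count of 7 higher stands against 29.9% of all 22640 tested genes, and the 1 lower against 34.7%. In either direction 8 of 9 passed, against 64.6%, and the libraries of 8 genes did not overlap, against 67.7%. With a log2 fold change of at least 1 also required, 2 were higher and 0 lower, where 7.10% and 1.17% of all genes were. The median change was 0.36 over the 9 genes and -0.04 over all tested genes.

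The second comparison made the same measurement in OE. There 7 genes rose, the WT set with 4CL3 in place of C3H3, and C3H3 and CSE1 fell. HCT6 rose most, to 2.73 times its level without PEG, followed by 4CL3 at 2.06 times. C4H2 rose to 1.5 times and C4H1 to 1.15 times, so the minor C4H paralog had the larger ratio.

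In OE the log2 changes were 1.40 (SE 0.04, limma adjusted p = 1.2e-12) for HCT6 and 1.03 (SE 0.04, adjusted p = 1.5e-11) for 4CL3. CSE2 rose by 0.66 (SE 0.10, limma adjusted p = 3.3e-05), C4H2 by 0.58 (SE 0.03, adjusted p = 1.4e-09) and 4CL5 by 0.48 (SE 0.04, adjusted p = 1.7e-07). HCT1 rose by 0.44 (limma adjusted p = 1.8e-07) and C4H1 by 0.20 (adjusted p = 5.8e-05). C4H1 was still called but at 0.09 with libraries rescaled to the same FPKM sum (limma adjusted p = 0.017) and at 0.12 with quantile normalization. CSE1 changed by -0.56 (SE 0.04, limma adjusted p = 1.2e-08). C3H3 changed by -0.43 (SE 0.04, limma adjusted p = 3.9e-07), and by -0.20 (adjusted p = 0.0021) once the trend of values on gene length was removed from each library. The 7 higher stand against 30.5% of all tested genes and the 2 lower against 34.1%. All 9 passed in one direction or the other, against 64.6%, and none overlapped, against 68.9%. At a log2 fold change of at least 1, 2 were higher and 0 lower, where 7.46% and 2.35% of all genes were. Their median change was 0.48, and that of all tested genes was -0.02.

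The third comparison set OE against WT on medium without PEG. Both HCT genes, the minor ligase gene 4CL5 and CSE2 were higher in OE, the largest ratios being 1.88 for CSE2 and 1.75 for HCT1. 4CL3 was lower, at 0.652 times WT, and C4H1 slightly lower, at 0.919 times. C4H2, C3H3 and CSE1 did not pass the test.

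HCT1 differed by 0.79 on the log2 scale (SE 0.04, limma adjusted p = 6.5e-10), CSE2 by 0.75 (SE 0.10, adjusted p = 1.4e-05), HCT6 by 0.45 (SE 0.04, adjusted p = 6.7e-07) and 4CL5 by 0.22 (SE 0.04, adjusted p = 0.00044). Over all alternatives CSE2 ran from 0.63 to 0.93. 4CL3 differed by -0.61 (SE 0.04, limma adjusted p = 1.2e-08) and C4H1 by -0.12 (SE 0.03, adjusted p = 0.0045). The intervals of the other 3 ran from -0.14 to 0.00 for C4H2, from -0.02 to 0.16 for C3H3 and from -0.12 to 0.05 for CSE1, with limma adjusted p of 0.10, 0.15 and 0.44. C4H2 was called at -0.10 with quantile normalization (limma adjusted p = 0.018). C3H3 was called at 0.13 without OE library 1, the lowest of its group (limma adjusted p = 0.010). Of the 9 genes 4 were called higher, against 31.7% of all tested genes, and 2 lower, against 23.4%. The 6 passing in either direction are close to the background of 55.0%, as are the 7 genes without overlap to 60.7%. None reached a log2 fold change of 1 upward or downward, where 3.90% and 0.769% of all genes did. The median difference was 0.07 for the 9 genes and 0.04 for all tested genes.

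The fourth comparison set OE against WT under PEG. HCT6 was 1.71 times WT, HCT1 1.35 times and 4CL3 1.32 times, and C4H2 and 4CL5 were also higher. C3H3 was lower at 0.632 times WT, as were CSE1 at 0.801 times and C4H1 at 0.822 times. CSE2, higher in OE without PEG, did not pass the test here. 4CL3 was thus lower in OE on one medium and higher on the other.

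The log2 differences under PEG were 0.76 for HCT6 (SE 0.04, limma adjusted p = 1.1e-09), 0.42 for HCT1 (SE 0.04, adjusted p = 2.9e-07) and 0.39 for 4CL3 (SE 0.04, adjusted p = 7.6e-07). They were -0.65 for C3H3 (SE 0.04, limma adjusted p = 3.7e-09), -0.32 for CSE1 (SE 0.04, adjusted p = 5.6e-06) and -0.28 for C4H1 (SE 0.03, adjusted p = 1.6e-06). The smaller differences of C4H2 (0.25, limma adjusted p = 1.6e-05) and 4CL5 (0.24, adjusted p = 2e-04) depended on scaling. C4H2 fell to 0.03 and lost its call with quantile normalization (limma adjusted p = 0.51) and stood at 0.13 with the same FPKM sum. 4CL5 kept its call at 0.10 and 0.12. Quantile normalization also moved 4CL3 to 0.22, HCT1 to 0.26, C4H1 to -0.47 and CSE1 to -0.53. C3H3 stood at -0.84 with quantile normalization and at -0.44 with the length trend removed, and was called in both. CSE2 differed by 0.08, with an interval from -0.13 to 0.29 (limma adjusted p = 0.49). The 5 genes called higher stand against 36.1% of all tested genes and the 3 lower against 32.2%. In either direction 8 passed, against 68.3%, and 8 did not overlap, against 71.7%. None reached a log2 fold change of 1 upward or downward, where 5.95% and 3.37% of all genes did. The median was 0.24 over the 9 genes and 0.03 over all tested genes.

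**Figure D3:**
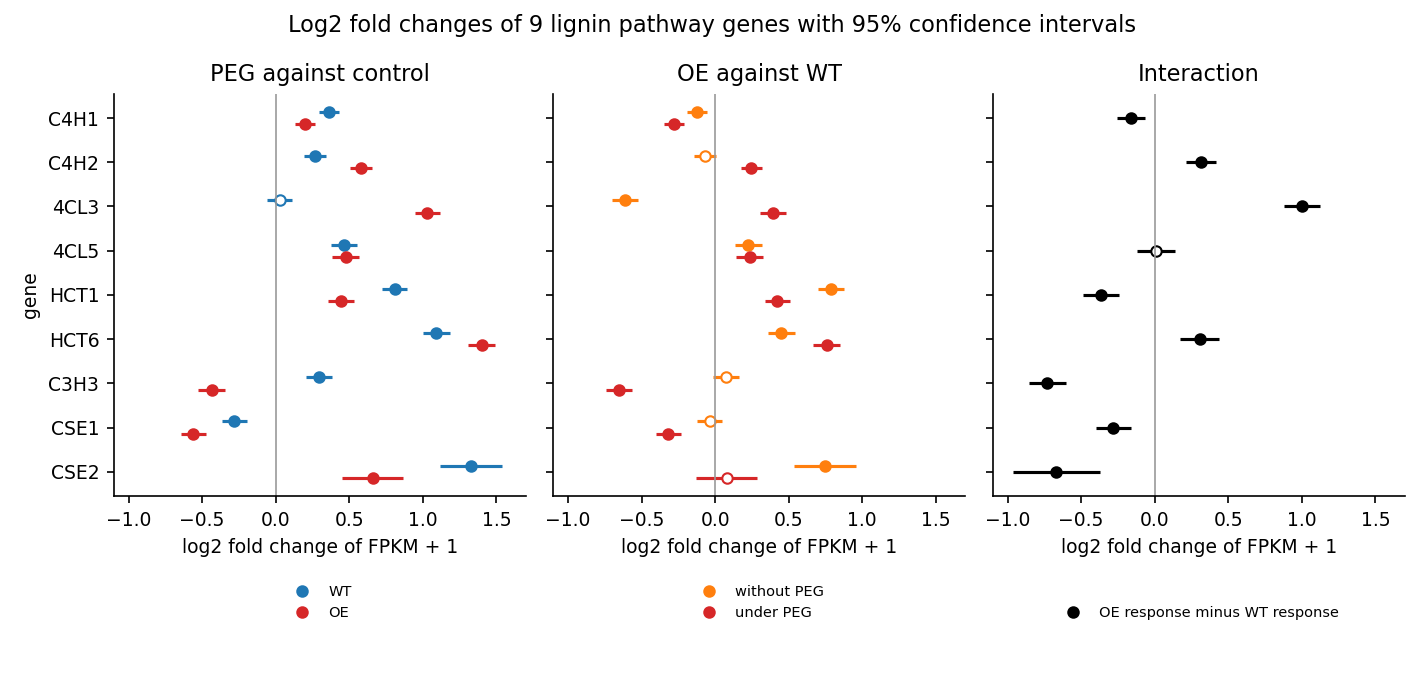
Log2 fold changes of FPKM + 1 (horizontal axes) of the 9 genes for PEG against control in each genotype (left), OE against WT on each medium (middle) and the interaction (right); lines are 95% confidence intervals of the limma fit, filled points passed the adjusted p threshold of 0.05 and open points did not. 4CL3 is near 0 in WT and at 1.03 in OE in the left panel, and C3H3 has PEG responses of opposite sign, 0.29 and -0.43.

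The interaction asked whether the PEG response differed between genotypes, and it did for all listed genes but 4CL5, beside 56.9% of all tested genes. The response of 4CL3, C4H2 and HCT6 was more positive in OE. That of C3H3, CSE2, HCT1, CSE1 and C4H1 was more negative. For 4CL3 PEG added 76.3 FPKM in OE and 2.13 in WT, from a lower start in OE. HCT1 and CSE2 rose by a smaller ratio in OE, where they already stood higher without PEG. HCT1 of OE without PEG (43.6 ± 0.417 FPKM) overlapped WT under PEG (44.2 ± 1.62). HCT6 and 4CL5 also stood higher in OE without PEG. Yet HCT6 rose by a larger ratio in OE (2.73 against 2.22) and 4CL5 by a similar one (1.41 against 1.4). C4H1, like 4CL3, stood lower in OE without PEG, but it rose by a smaller ratio in OE (1.15 against 1.29). Whether the level without PEG bears on the response was not tested. The change of CSE1 was -50.4 FPKM in OE and -28.4 in WT. The OE libraries without PEG enter both the PEG response of OE and the difference from WT on that medium.

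The interaction, the log2 response in OE minus that in WT, was 1.00 for 4CL3 (SE 0.06, limma adjusted p = 2.9e-09), larger in size than that of 91.1% of tested genes. C3H3 had -0.73 (SE 0.06, limma adjusted p = 1.2e-07) and CSE2 had -0.67 (SE 0.14, adjusted p = 0.00084). Over all alternatives C3H3 ran from -0.92 to -0.49 and CSE2 from -0.84 to -0.57. HCT1 had -0.36 (SE 0.06, limma adjusted p = 7.3e-05) and CSE1 -0.28 (SE 0.06, adjusted p = 0.00069). C4H2 had 0.32 (SE 0.05, limma adjusted p = 6.6e-05), HCT6 0.31 (SE 0.06, adjusted p = 0.00066) and C4H1 -0.16 (SE 0.04, adjusted p = 0.0066). For 4CL5 it was 0.01, with an interval from -0.12 to 0.14 (limma adjusted p = 0.89). The calls of C4H2 and HCT6 held at 0.18 each with the same FPKM sum and at 0.13 and 0.20 with quantile normalization. Those of C4H1 and CSE1 grew to -0.37 and -0.52 with quantile normalization, and C4H1 to -0.29 with the same FPKM sum. The 3 genes above 0 stand against 27.8% of all tested genes and the 5 below against 29.0%. In either direction 8 passed, against 56.9%. With a size of at least 1 also required, 4CL3 alone was above 0 and none below, where 3.95% and 4.93% of all genes were. The median was -0.16 over the 9 genes and 0.01 over all tested genes.

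Profiles over the 12 libraries were compared by the Euclidean distance between log2(FPKM + 1) values, each gene centred on its own mean, a measure set mostly by differences between the 4 groups. For no paired gene other than C4H1 was its own paralog the nearest of the listed genes. C4H2 lay nearest to 4CL5 at a distance of 0.397, and 4CL3 nearest to C4H2 at 0.736. HCT1 lay nearest to 4CL5 at 0.791, and CSE2 nearest to HCT1 at 0.830. C3H3 and CSE1, the 2 genes that fell with PEG in OE, were nearest to each other at 0.756. The farthest pair was HCT6 and CSE1 at 3.23. How close the nearest listed gene was on the scale of all other tested genes varied. It ranked 141 in distance from 4CL3, 155 from C4H2, 230 from 4CL5 and 256 from CSE2. From HCT6 and HCT1 it ranked 498 and 658, and from C4H1, C3H3 and CSE1 it ranked 2858, 3719 and 5265.

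Outside the list, the gene nearest to C4H1 was Potri.006G138000, at a distance of 0.146, and the gene nearest to HCT6 was Potri.004G236100, at 0.246. The table gives neither a name. Few genes lay within 0.5 of 4CL3, 13 of 22631 others, against 669 for C4H1, 880 for C3H3 and 1344 for CSE1. Profiles were not scaled to equal size, so these numbers also depend on how far a gene moved. The highest group mean was 2.06 times the lowest for 4CL3, 1.4 for C4H1, 1.58 for C3H3 and 1.52 for CSE1. For CSE2 and HCT6, 15 and 23 genes lay within 0.5. Their highest group means were 3.15 and 3.8 times the lowest.

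**Figure D4:**
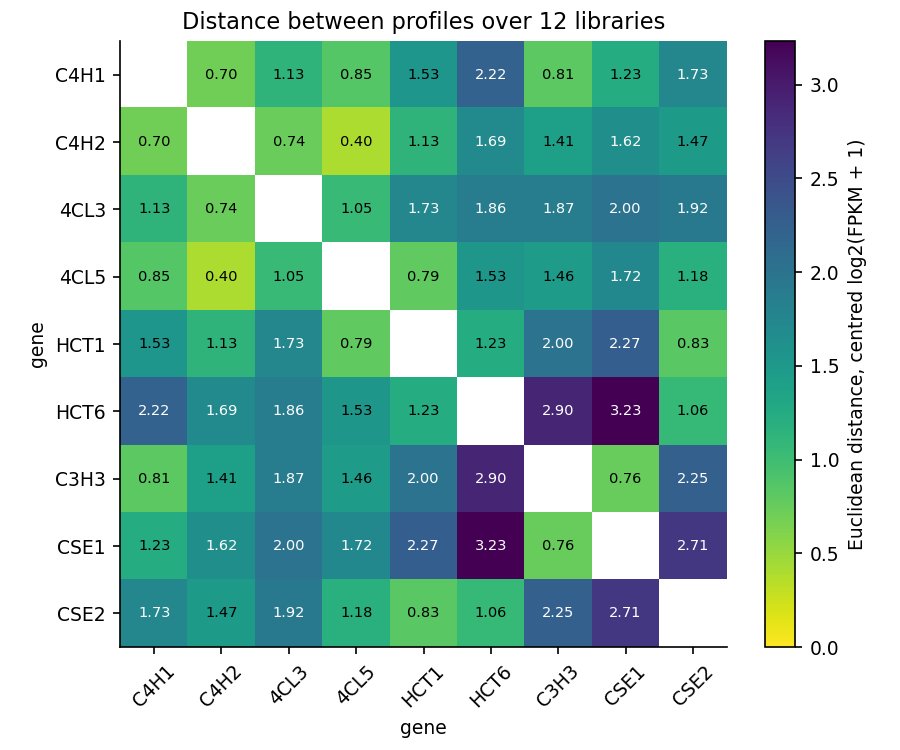
Euclidean distance between the centred log2(FPKM + 1) profiles of each pair of the 9 genes over 12 libraries (colour and printed value; the same genes on both axes; dark is far). C4H2 and 4CL5 are the closest pair at 0.40, and HCT6 and CSE1 the farthest at 3.23.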

How the data were processed

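RNA-seq of 12 root tip libraries was deposited as one table of FPKM values by the authors, 1 column per library, named by sample title. The submitters' processing notes name HISAT2 2.1.0, HTSeq 0.6.0 and Bowtie2 2.2.3 without saying what each did. Not given in the sources used here are the strand setting, the annotation, the genome build and how reads matching more than 1 gene were treated. Reads of the paralogs could therefore have been split or dropped, and their values are uncertain to that extent.

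The test was limma 3.58.1 (R 4.3.3) on log2(FPKM + 1) (mean-variance trend, two-sided moderated statistics, all 12 libraries in 1 fit of 4 group means). A mean FPKM of 1 or more was required, which 22640 of 34699 genes met, and all 9 listed genes passed. Benjamini-Hochberg adjustment ran over all tested genes within each of 5 contrasts, with 0.05 as the threshold of a call. The code was tested on simulated data. Whole reads were recovered for all 22640 genes, with 100% of values whole within 0.05 reads, and used for depth, gene length and a voom fit. Replicate numbers were not used to pair libraries, and the closing section gives how same-numbered libraries correlated. Between replicates, chi-square per degree of freedom over these reads was 2.91 to 4.80, so no library was a repeat of another.

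The 9 genes, the tests and the alternatives were chosen with earlier results of these data known. All 9 genes are named, and for each the nearest gene outside the list was sought. Lists of other pathway genes and of cell type markers had been drawn up for use with an annotation, and were not used here.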

Additional observations from a re-analysis of the deposited data

Results flagged for a closer look

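The PEG response differed between OE and WT by the test of the interaction for 8 of the 9 genes and for 56.9% of all 22640 tested genes, given as log2 fold changes (limma, 3 libraries per group). It was more positive in OE for 4CL3 (1.00), C4H2 (0.32) and HCT6 (0.31). It was more negative in OE for C3H3 (-0.73), CSE2 (-0.67), HCT1 (-0.36), CSE1 (-0.28) and C4H1 (-0.16). Only for C3H3 did the responses have opposite signs with both called, every WT PEG library lying above and every OE PEG library below the libraries of its genotype without PEG. Its PEG change in OE, -0.43, was -0.20 with the trend on gene length removed, and its recovered length of 3941 bp is the longest of the 9. Its interaction ran from -0.92 to -0.49 over all alternatives.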

How the results depend on the processing

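Of the 39 called fold changes of the listed genes, 1 was lost under any alternative other than the 2-fold requirement, that of C4H2 in OE against WT under PEG with quantile normalization. Of the 6 not called, 3 gained a call under 1 alternative each. Requiring a log2 fold change of at least 1 left 0 genes called in OE against WT without PEG and 0 under PEG, in either direction. It left 2 higher and 0 lower (2 in all) for PEG in WT and likewise in OE, and 1 above and 0 below 0 (1 in all) for the interaction. Signs turned only for values that were not called. CSE2 in OE against WT under PEG went to -0.03 with the same FPKM sum and -0.05 with the length trend removed. The interaction of 4CL5 went to -0.12 with the same FPKM sum, -0.01 with the length trend removed and -0.10 under quantile normalization, and ran from -0.02 to 0.04 with single libraries left out. The cause was not tested. The length trend was taken up as an alternative after the data were seen. With a replicate block 39 values were called, as without it, and the 4CL3 interaction stayed at 1.00. Deviations of same-numbered libraries correlated at -0.071 to 0.1, so no strong shared shift was seen. This cannot show whether same-numbered libraries were grown or prepared together. With voom on recovered reads 39 were called too. With so many reads per gene, depth limits CSE2 most, at 124 to 544 reads per library.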
